A study of Mus musculus with 7 samples.

Results

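Macrophages of the healthy colon were profiled on 3 arrays, which are 3 of the 7 arrays of the series. They were chosen by their labels alone, as the arrays of resident macrophages from CX3CR1gfp/+ mice kept free of specific pathogens, and no mutant array was compared with them. The cells were obtained by fluorescence-activated sorting from the lamina propria of the colon, the connective tissue beneath the gut epithelium, of C57BL/6 mice aged 6 weeks. In these mice 1 allele of Cx3cr1, the receptor gene for fractalkine, is replaced by the gene of the green fluorescent protein, so every control array carries a single working copy of Cx3cr1. A further control array of the same genotype, strain, tissue and age carries the sort label CX3CR1hi and is set beside the 3 arrays as a value only. The other 3 arrays come from mice lacking Il10 or with Cx3cr1-cre and floxed Il10ra and were not used. Neither the gate that defined a resident macrophage nor whether an array holds 1 animal or a pool is given in the sources used here, so the spread between arrays may be technical. The study used these arrays as the baseline against which loss of the IL-10 signal was measured. Here the question is which receptors, cytokines, transcription factors, enzymes and lysosomal genes that baseline contains.

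Resident macrophages of the colon are renewed from blood monocytes, which lose inflammatory responsiveness and gain high MHC class II, CX3CR1 and scavenging receptors as they settle beneath the epithelium. They clear dying epithelial cells and bacteria that cross the barrier, and degrade what they take up in lysosomes. IL-10 acts on them through a receptor made of Il10ra and Il10rb and restrains their response to bacterial products, while CSF1, acting through Csf1r, keeps macrophages alive.

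Each gene was represented by its brightest probe set with a single gene symbol, which gave 19938 genes on a log2 scale. The background level was set at log2 6.08, the 95th percentile of the means of 1231 olfactory, vomeronasal and taste receptor genes. A gene counted as above background when its mean lay over that level by a one-sided moderated test (limma, Benjamini-Hochberg adjusted p under 0.05 over all genes). By this rule 8834 genes, 44.3% of those tested, were above background, and 20 of the 1231 receptor genes passed as well. A gene counted as strong when it lay in the top 10% of genes in each of the 3 arrays, which 1739 genes or 8.72% did. Above-background genes that were not strong are called moderate from log2 8.31 upwards, the median of all genes above background, and weak below it. Genes whose mean lay over the background level without passing the test are called undecided, and the remaining 10559 genes lay at or below background. A gene at or below background is not shown to be silent, since its signal could not be told from that of the reference genes. Probe sets differ in how brightly they report the same amount of RNA, so percentiles order signals and not amounts of RNA. Lists and their members were chosen with earlier results of these data known, so the share of a list above background may partly reflect that choice. In each list described here, members beyond the 5 highest and the 3 lowest were named after their values had been seen.

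**Figure D1:**
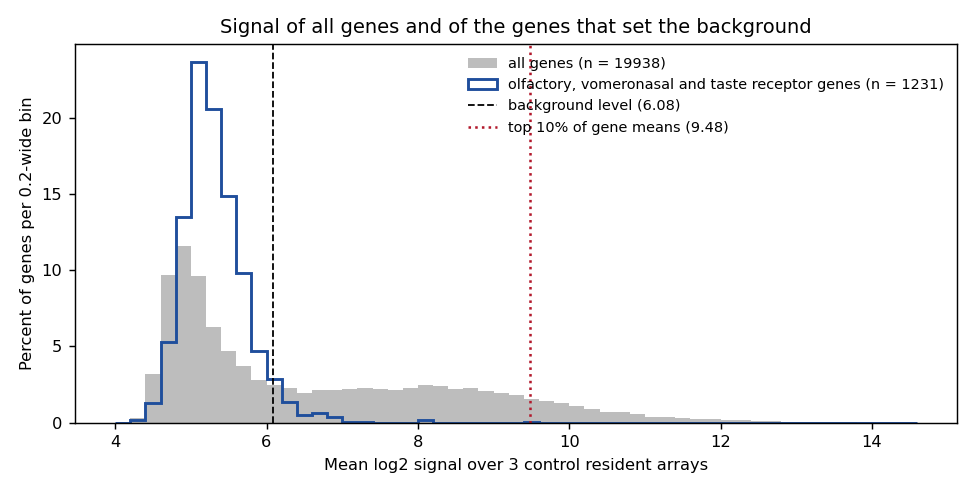
Share of genes in each bin of mean log2 signal over the 3 control resident arrays, for all 19938 genes (grey) and for the 1231 olfactory, vomeronasal and taste receptor genes (blue line). The dashed line is the background level of 6.08 and the dotted line marks log2 9.48, above which the top 10% of gene means lie.

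All 6 genes taken beforehand as markers of resident macrophages were strong. Adgre1, which encodes the F4/80 antigen, read log2 12.25, 12.51 and 12.47 in arrays 1, 2 and 3, and Csf1r read 12.36, 12.33 and 12.41. C1qa, a chain of complement C1q made by tissue macrophages, read 12.18, 12.22 and 12.18. These 3 genes stood at percentiles of 99.4 to 99.6, with SDs between arrays of 0.14 or less. Cx3cr1, of which these mice have a single intact allele, read 10.70, 10.74 and 10.85. Il10ra read 10.56, 10.76 and 11.12, and Il10 itself read 9.76, 9.83 and 10.86, with array 3 above the other 2 arrays by about 1 log2 unit. Adjusted p-values against background ran from 5.73e-05 for Csf1r and C1qa to 0.00278 for Il10 (limma, one-sided). All 6 markers lay in the top 10% of genes in every array. As the sort gate is not given, they are not shown to define the sorted cells.

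Transcripts of colonic epithelium were strong in the same arrays. All 15 epithelial markers were above background (100% against 44.3% of all genes) and 9 were strong (60% against 8.72%). Strong members included the carbonic anhydrase gene Car1 (13.31, 13.13 and 12.98) and the keratin gene Krt8 (12.94, 13.08 and 12.77). Others were the galectin gene Lgals4 (12.30, 12.69 and 12.27) and the goblet cell mucin gene Muc2 (11.85, 12.19 and 11.69). The mean over the 15 markers was 10.39, 10.76 and 10.39 in the 3 arrays. How much of the signal of any gene that epithelium also expresses came from epithelial RNA was not tested. In material of this kind, fewer cells of a type and less RNA per cell cannot be told apart. Of 13 fibroblast and muscle markers 7 were above background (53.8% against 44.3% of all genes). Among them 1 was strong (7.69% against 8.72%), the matrix proteoglycan gene Dcn (11.26, 11.39 and 10.63). In that list 3 of the 13 were called without array 1 and 4 without array 2, and 2 were strong without array 3. Endothelial markers gave 2 of 9 (22.2% against 44.3% of all genes), both weak and led by Pecam1 at 7.56. Without array 2 that count was 0 of 9.

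In lists of markers of other blood cells, the share of genes above background was near or below the 44.3% of all genes. T cell and innate lymphoid markers gave 2 of 11 (18.2% against 44.3% of all genes). Cd4, which mouse gut macrophages also express, was strong (10.38, 10.52 and 10.88) and Il7r was moderate at 8.90. Cd3d, Cd3e, Cd3g, Cd2, Cd5 and Cd8a lay between log2 4.61 and 5.42. Without array 2 or without array 3, 1 of the 11 was called. B and plasma cell markers gave 3 of 8 (37.5% against 44.3% of all genes), of which 2 were strong (25% against 8.72%). The immunoglobulin joining chain gene Jchain was strong at 11.55, 11.59 and 11.60, the secretory regulator Xbp1 strong at 10.43 and Cd79b moderate at 8.82. Ms4a1, Cd79a and Pax5 lay at or below background. Neutrophil markers gave 2 of 11 (18.2% against 44.3% of all genes), Csf3r at 8.74 and Ly6g at 7.62, with S100a8 at 5.05 and S100a9 at 5.42. Without array 2 or without array 3 that count was 1. Dendritic cell markers gave 4 of 10, a share of 40% against 44.3% of all genes. The lectin gene Cd209a was moderate at 9.04, Siglech, Batf3 and Kit were weak at 7.05, 6.63 and 6.49, Ccr7 was undecided at 7.44, and Flt3, Zbtb46, Xcr1, Clec9a and Itgae lay at or below background. None of 10 mast cell and eosinophil markers, 7 neuron and glia markers or 2 erythroid markers was above background, and their highest members were Siglecf at 5.68, Sox10 at 5.06 and Epor at 5.79. As every mean in these 3 lists lay below the level, 0 passed at an unadjusted p under 0.05 too (limma). Monocyte markers were split, with 3 of 7 above background (42.9% against 44.3% of all genes). These 3, Ccr2, Fn1 and Plac8, were strong (42.9% against 8.72%), and Vcan, F10, Chil3 and Hp lay at or below background.

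**Figure D2:**
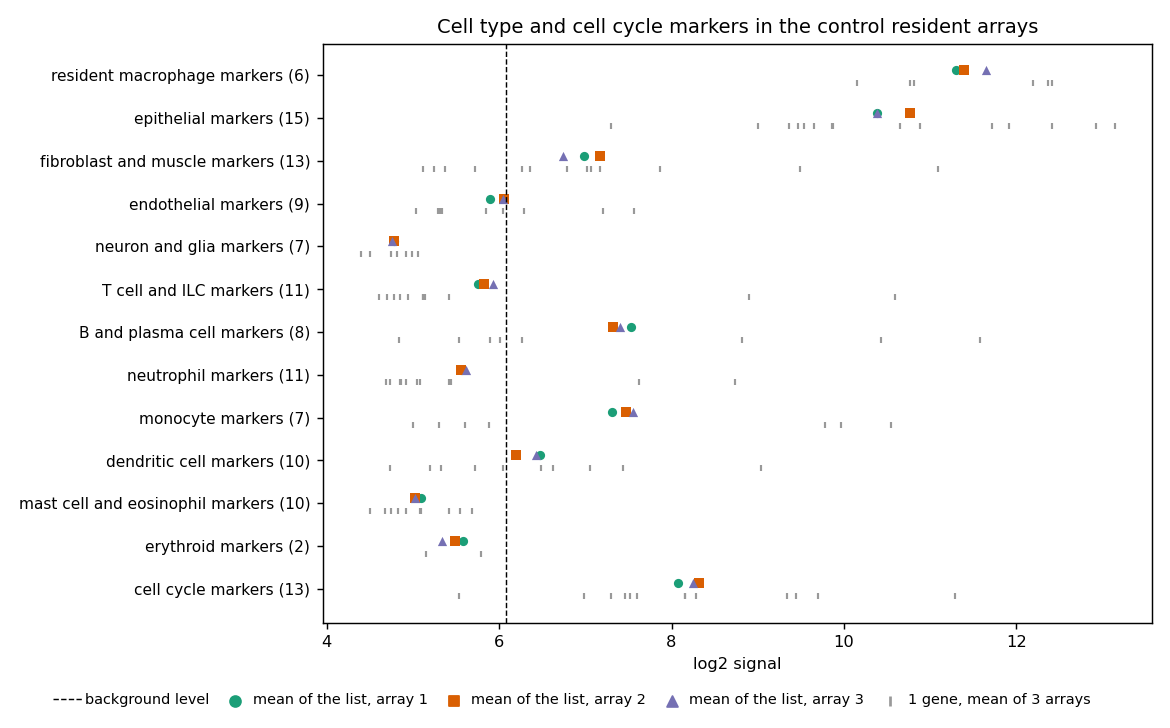
Mean log2 signal of each marker list in control resident arrays 1, 2 and 3 (coloured points), with grey ticks for the mean of each gene and the number of measured genes in brackets. The macrophage and epithelial lists lie highest, with array means from 11.30 to 11.65 and from 10.39 to 10.76, and neuron, mast cell and erythroid markers lie below the dashed background level.

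Receptors were the largest group of genes examined. Of 136 measured receptor genes in 5 lists, 98 were above background (72.1% against 44.3% of all genes) and 60 were strong (against 8.72% of all genes). Another 7 were undecided and 31 lay at or below background.

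Cytokine receptors were led in signal by chains for CSF1, interferons and TGF-beta, followed by chains for IL-4 and IL-10. Of 35 measured genes 25 were above background (71.4% against 44.3% of all genes) and 18 were strong (51.4% against 8.72%). After Csf1r came both chains of the interferon-gamma receptor, Ifngr1 at 11.49, 11.66 and 11.73 and Ifngr2 at 11.59, 11.59 and 11.58. The TGF-beta receptor kinase gene Tgfbr1 read 11.47, 11.17 and 11.68, and Ifnar2, a chain of the type I interferon receptor, read 11.02, 11.20 and 11.54. Il4ra, shared by the IL-4 and IL-13 receptors, stood at 11.08 ± 0.12 (SD, n = 3), with its partner Il13ra1 at 10.77 ± 0.33. Il10rb, the accessory chain of the IL-10 receptor, was at 11.05 ± 0.044, so both chains of that receptor were strong in each array. The GM-CSF receptor chains Csf2rb and Csf2ra were strong at 10.72 and 10.07, although their ligand Csf2 lay at background in these cells. Both TNF receptor genes were strong, Tnfrsf1b at 10.16 and Tnfrsf1a at 9.80. Receptors best known from lymphocytes were mixed. Il21r and Il7r were moderate at 9.30 and 8.90, while Il12rb1, Il12rb2 and Il2ra lay between 5.20 and 5.52 and Il23r, Il18r1 and Il27ra were the 3 lowest of the list at 4.75, 4.94 and 5.09. Il1r2, a decoy receptor for IL-1, could not be placed, as it read 7.66 and 7.77 in arrays 1 and 2 and 11.19 in array 3 (adjusted p = 0.0937, limma).

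Most chemoattractant receptors were either strong or not detected. Of 20 measured genes 9 were above background, 45% against 44.3% of all genes, yet 8 of those 9 were strong and the remaining gene, Cxcr3, was weak at 6.83. C3ar1, the receptor for complement C3a, read 12.69, 12.69 and 12.88. Cxcr4, the receptor for CXCL12, read 11.30, 10.87 and 11.87, and Ccrl2, which binds chemerin, read 11.12, 10.34 and 11.54. Cmklr1, the signalling receptor for chemerin, stood beside Cx3cr1 among the 5 highest at 10.75 ± 0.12. Ccr2, which brings monocytes out of the blood, was strong but uneven at 9.75, 10.54 and 11.33. Below background lay Ccr8, Ccr4 and Ccr6, the 3 lowest (4.64 to 4.73), and the lymphocyte and granulocyte receptors Ccr3, Ccr9, Ccr10, Cxcr2, Cxcr5 and Cxcr6. Ccr7, which guides cells to lymph nodes, was undecided at 8.07, 6.64 and 7.60 (adjusted p = 0.0512, limma).

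Pattern recognition receptors were almost all detected. Of 23 genes 20 were above background (87% against 44.3% of all genes) and 0 lay at or below background. Strong genes numbered 9 (39.1% against 8.72%). Ly96, the MD-2 partner of TLR4, read 11.19, 11.39 and 11.71, and Cd14, the lipopolysaccharide co-receptor, read 10.96, 10.38 and 10.97. Of the nucleic acid sensors of the endosome 4 were strong and Tlr3, which binds double-stranded RNA, was moderate at 8.48 ± 0.14. The strong genes were Tlr13 at 11.23 ± 0.29, Tlr8 at 10.90 ± 0.27, Tlr7 at 10.69 ± 0.23 and Tlr9 at 10.29 ± 0.16. Of the sensors of bacterial surface molecules, Tlr1 was strong at 10.82 ± 0.14, while Tlr2 (9.50, 8.77 and 9.08) and Tlr4 (9.07, 8.82 and 9.09) were moderate and Tlr6 was weak at 7.63. The fungal glucan receptor Clec7a read 10.42 and 10.42 in arrays 1 and 2 and 11.93 in array 3, from a row that lists no current RefSeq transcript of the gene. The inflammasome sensors Nlrp3, Aim2 and Nlrc4 were moderate, with Nlrp3 at 10.04, 8.86 and 10.46 and Nlrc4 at 8.47. Of the 3 undecided genes, Clec4d stood at 6.81 and Clec4e, a sensor of mycobacterial glycolipid, at 8.68, 6.56 and 8.60. The lowest gene of the list was Nod2, the sensor of muramyl dipeptide, also undecided, which read 5.86, 6.08 and 6.43, astride the background level.

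Scavenging and phagocytic receptors made up the largest group of strong receptors. Of 36 genes 29 were above background (80.6% against 44.3% of all genes) and 19 were strong (52.8% against 8.72%). The tetraspanin gene Cd81 stood at 12.94 ± 0.10 (SD, n = 3), and Fcer1g, the signalling chain of activating Fc receptors, read 12.80, 12.95 and 12.98. The inhibitory Fc receptor gene Fcgr2b read 12.50, 12.68 and 12.90, and the mannose receptor gene Mrc1 read 12.42, 12.26 and 12.28. Receptors for dying cells were present in part. Axl was strong at 11.17 ± 0.13, Mertk was strong at 10.01 ± 0.37 and Timd4 was weak at 7.14 ± 0.15, while Tyro3, the other member of the Axl and Mertk kinase family, lay at background at 5.20. Their bridging ligands Gas6 and Pros1, which link the kinases to phosphatidylserine, were detected at 10.50 and 8.65. Stab1, a scavenger receptor of perivascular macrophages, was strong at 12.07, 11.71 and 11.17, while its relative Stab2, of liver sinusoids, lay at 5.33. Marco and Clec4f, found on alveolar or marginal zone and on liver macrophages, were the lowest with Tyro3, at 4.99 and 4.94. Vsig4, a complement receptor, also lay at background at 5.81, 5.07 and 4.95. Markers of perivascular macrophages differed between arrays, with Lyve1 at 10.56, 10.30 and 8.20, Folr2 at 9.85 ± 0.48 and Cd163 at 8.90, 8.11 and 6.64. Each was lowest in array 3, and Cd163 did not pass the test (adjusted p = 0.0728, limma).

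Receptors for nucleotides led the last receptor list. In it 15 of 22 genes were above background (68.2% against 44.3% of all genes) and 6 were strong (27.3% against 8.72%). P2ry6, the receptor for UDP, read 11.68, 11.56 and 11.64, and P2ry13, an ADP receptor, read 11.45, 11.45 and 11.67. The ATP-gated channel genes P2rx4 and P2rx7 were strong at 10.89 ± 0.083 and 9.99 ± 0.23, and the proton-sensing receptor gene Gpr65 at 10.71 ± 0.36. P2ry12, often used to mark microglia, was strong as well at 9.40, 9.66 and 9.98. Of the prostaglandin E2 receptors Ptger4 was moderate at 8.96 ± 0.23, and Ptger1, Ptger2 and Ptger3 lay at background. The butyrate receptor Hcar2 was weak at 7.98, while the short-chain fatty acid receptor Ffar2 (5.14), the nicotinic receptor subunit Chrna7 (5.24) and the succinate receptor Sucnr1 (4.97) were not detected.

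The promoters of strong receptor genes were searched for GAGGAA, the core of binding sites for PU.1, the master regulator of macrophage genes. Both strands were read over the 250 bases before the start of each RefSeq transcript (GRCm38.p6), and GAGGAA is not part of any other motif searched. The core occurred in 48.1% of 54 promoters of 47 strong receptor genes, in 43.1% of 130 promoters of 106 measured receptor genes and in 22.6% of 19177 promoters of all measured genes. Over all strong genes the share was 24.7%. These shares are descriptions, and a match is not a binding site. The promoters of Mrc1 (chr2:14229164-14229413, plus strand) and Fcgr3 (chr1:171059395-171059644, minus strand) are shown as strong receptor genes with the core, in capitals, within the window; TTCCTC is the same core read on the other strand. Mrc1 has 3 matches and Fcgr3 has 1, which begins 15 bases before the transcript start.
Mrc1: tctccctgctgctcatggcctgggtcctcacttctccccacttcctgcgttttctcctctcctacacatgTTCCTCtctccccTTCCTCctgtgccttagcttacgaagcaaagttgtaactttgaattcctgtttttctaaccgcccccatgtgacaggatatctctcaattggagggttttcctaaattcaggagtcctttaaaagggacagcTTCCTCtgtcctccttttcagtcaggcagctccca
Fcgr3: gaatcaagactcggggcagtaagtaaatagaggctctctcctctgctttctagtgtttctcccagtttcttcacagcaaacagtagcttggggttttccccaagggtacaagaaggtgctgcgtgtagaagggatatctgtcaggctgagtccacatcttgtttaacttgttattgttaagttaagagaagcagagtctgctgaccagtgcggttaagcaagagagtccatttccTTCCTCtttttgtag
Spi1, which encodes PU.1, was itself strong at 10.95, 10.92 and 11.31.

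**Figure D3:**
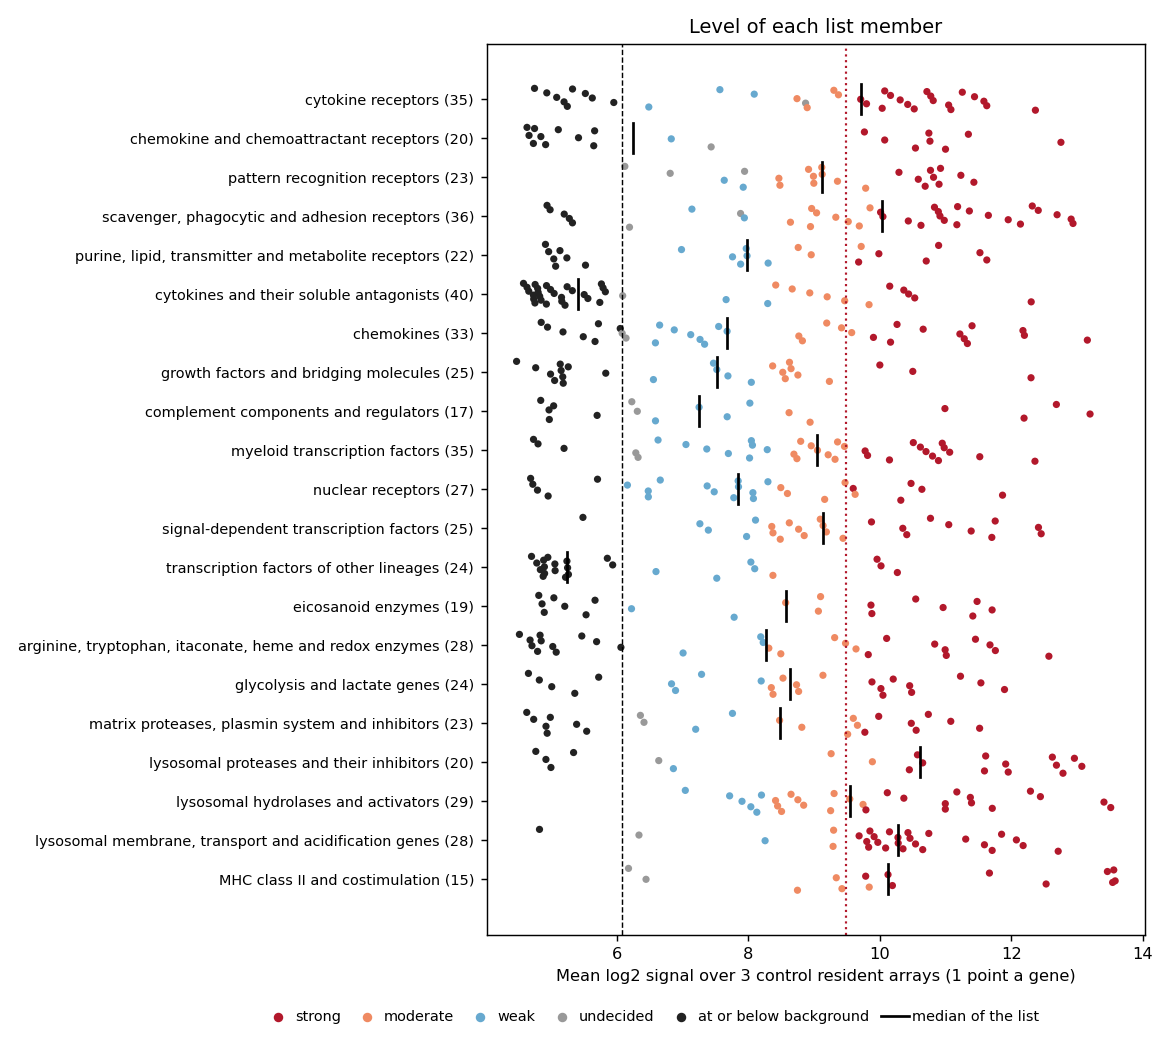
Mean log2 signal of every measured member of the 21 role lists, 1 point a gene, coloured by class, with the number of members in brackets and a black bar at each list's median. The dashed line is the background level (6.08) and the dotted line the start of the top 10% of gene means (9.48). Scavenger receptors (median 10.03) and lysosomal membrane genes (10.28) lie mostly to the right of the dotted line, and cytokines (5.42) mostly to the left of the dashed line.

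Cytokine genes were detected selectively. Of 98 measured genes in 3 lists 52 were above background (53.1% against 44.3% of all genes) and 19 were strong (19.4% against 8.72%), but the share was low for cytokines themselves, of which 13 of 40 were above background (32.5% against 44.3% of all genes) and 26 lay at or below it. The median cytokine stood at log2 5.42, under the median of 5.86 over all genes.

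The cytokines that were strong included inflammatory and regulatory genes in the same arrays. Il1b, which encodes IL-1 beta, read 12.23, 11.90 and 12.78, and Il1a read 10.77, 9.87 and 10.95. Tnf read 10.73, 9.85 and 10.52. Tgfb1 varied least, at 10.42, 10.33 and 10.57, and Il10 completed the strong set. Il1b, Il1a and Tnf were lowest in array 2. Antagonists were detected beside them, with Il1rn, the IL-1 receptor antagonist, at 9.84 ± 0.42 and Il18bp, which neutralises IL-18, at 8.42 ± 0.070. Osm, of the IL-6 family, was moderate at 9.23, 8.84 and 10.32, and the B cell survival factor Tnfsf13b was moderate at 9.20. Ebi3, the shared subunit of IL-27 and IL-35, was steady at 8.94 ± 0.037, while Il27, the other IL-27 subunit, was undecided at 6.09.

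Il18, an IL-1 family cytokine that epithelium also makes, was moderate at 8.56, 8.88 and 8.56, and Il15 was weak at 7.66. The 26 members at or below background included these genes. Il12a, Il12b and Il23a, which encode the subunits of IL-12 and IL-23, stood at 4.76, 5.74 and 5.56. Il6 read 5.37, 4.89 and 4.89. The 3 lowest were Il3, Csf3 and Csf2 (4.58 to 4.66), and Csf1, Il34 and Ifnb1 lay at or below background at 5.79, 4.93 and 5.77. Genes of T cells and epithelial alarmins, Ifng, Il17a, Il4, Il13, Il33 and Tslp, lay between 4.80 and 5.33.

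Chemokines were detected more widely than cytokines, with 24 of 33 above background (72.7% against 44.3% of all genes) and 11 strong (33.3% against 8.72%). Ccl3, which recruits monocytes and T cells, read 13.31, 12.76 and 13.39, among the 25 highest of the genes ranked. Cxcl2, a neutrophil attractant, read 12.30, 11.63 and 12.67, and Cxcl16 read 12.12, 11.95 and 12.46. Ccl8 and Pf4 completed the 5 highest at 11.40 ± 0.22 and 11.33 ± 0.23. The interferon-induced chemokines Cxcl9 and Cxcl10 were strong at 11.28 and 11.22, while the third ligand of their receptor, Cxcl11, was undecided at 6.08. Ccl2 and Ccl7, ligands of CCR2, were highest in array 1, where they read 10.48 and 10.96, against 9.05 and 9.82 in array 3. Ccl28, a chemokine of mucosal epithelium, was strong at 10.16 ± 0.27, in arrays whose epithelial markers were also strong, and the part of epithelial RNA in it was not tested. The lowest were Cxcl5, Ccl1 and Xcl1 (4.85 to 5.18), with Ccl20 and Ccl25, both made by gut epithelium, at 5.49 and 5.72.

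**Figure D4:**
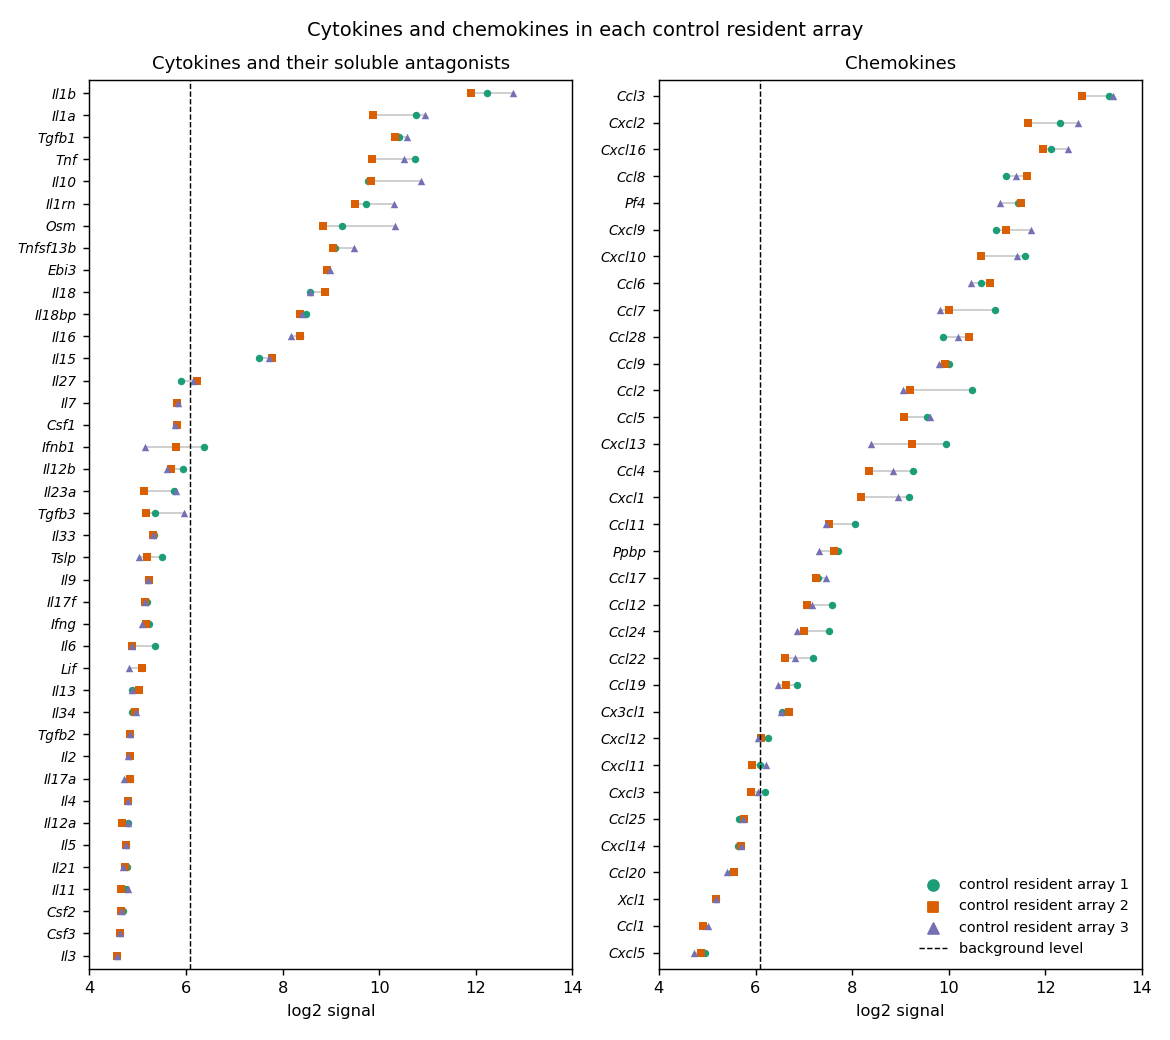
log2 signal of each cytokine (left) and chemokine (right) in control resident arrays 1, 2 and 3, ordered by mean, with a grey bar over the range. Il1b and Ccl3 head the 2 panels at means of 12.30 and 13.16, and Il6, Il12a and Csf2 lie left of the dashed background level in every array.

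Growth factors and bridging molecules gave 15 of 25 above background (60% against 44.3% of all genes) and 3 strong, a share of 12% that is near the 8.72% of all genes. Grn, which encodes the lysosomal growth factor progranulin, read 12.31, 12.31 and 12.27. Gas6 read 10.72, 10.59 and 10.20 and Igf1 read 9.84, 10.06 and 10.10. Pdgfb and Hbegf were moderate at 9.23 and 8.75. Vegfa, the angiogenic factor, ranged widely at 8.20, 7.86 and 9.63. Wnt and R-spondin genes for epithelial stem cells were not detected, with Wnt3a and Wnt5a at 4.48 and 4.99 and Rspo1 and Rspo3 at 5.18 and 5.19, and Bdnf at 4.77 and Fgf2 at 5.06 were also at background.

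Complement genes were split between C1q and the rest. Of 17 genes 10 were above background (58.8% against 44.3% of all genes) and 4 were strong (23.5% against 8.72%). C1qb read 13.16, 13.21 and 13.22 and C1qc read 12.68, 12.69 and 12.69, so the 3 chains of C1q stood at percentiles of 99.4 to 99.9. The proteases that C1q activates were low, with C1ra weak at 6.59 and C1s1 undecided at 6.23. Cfp, which encodes properdin, was strong at 11.17, 11.11 and 10.68. Serping1, the C1 inhibitor, completed the 5 highest at 8.94, and the regulator Cr1l was moderate at 8.62. The 3 lowest were Cfi, Hc and Mbl2 (4.84 to 4.98), genes expressed mainly in liver.

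Transcription factors were detected in most members of 3 of the 4 lists. Of 111 measured genes 84 were above background (75.7% against 44.3% of all genes) and 31 were strong (27.9% against 8.72%). Among 35 myeloid factors the counts were 30 (85.7%) and 13 (37.1%), and among 27 nuclear receptors 22 (81.5%) and 5 (18.5%). Among 25 signal-dependent factors they were 24 (96%) and 10 (40%). Among 24 factors of other lineages they were 8 (33.3%, below the share of all genes) and 3 (12.5%). The nuclear receptor count fell to 13 of 27 without array 3.

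The myeloid list held the factors that define macrophages. Nfe2l2, the regulator of antioxidant genes, read 12.25, 12.08 and 12.75 and Klf6 read 11.63, 11.40 and 11.53. Zeb2 and Mef2a followed Spi1 at 10.98 ± 0.19 and 10.95 ± 0.089. Maf, a regulator of tissue macrophage genes, was strong at 11.25, 10.72 and 10.44, and the interferon regulatory factors Irf8 and Irf1 at 10.62 and 10.51. Runx3, which is needed for TGF-beta responses of gut phagocytes, was strong at 9.80, 9.50 and 10.13. Irf5 and Cebpa were moderate at 9.22 and 9.36, Cebpb was weak at 8.38, 7.33 and 8.48, and Irf4 was weak at 7.05. Factors that mark other macrophages were mixed. Sall1, of microglia, lay at background at 4.80, Spic, of splenic red pulp macrophages, was weak at 8.02, and Gata6, of peritoneal macrophages and also of colonic epithelium, was moderate at 8.74. The dendritic cell factor Zbtb46 and the granulocyte factor Cebpe were, with Sall1, the 3 lowest at 4.74 and 5.20.

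Nuclear receptors were led by Nr4a1, an immediate early gene that patrolling monocytes need, at 12.02, 11.52 and 12.06. Nr1d1, a repressor of the circadian clock, was moderate and ranged from 8.65 in array 2 to 10.31 in array 1. Vdr, the vitamin D receptor, was strong at 10.43, 10.62 and 10.37, and Ahr, the receptor for indoles and other aryl compounds (a ligand-activated factor listed here with the nuclear receptors), at 10.09, 10.09 and 10.78. Hnf4a, a factor of gut epithelium and liver, was strong at 10.59, 10.89 and 10.45, beside strong epithelial markers. Vdr and Hnf4a were both highest in array 2 and lowest in array 3, and the part of epithelial RNA in either was not tested. Pparg and Nr3c1, the glucocorticoid receptor, were moderate at 9.16 and 9.47. Nr1h3, the oxysterol receptor LXR alpha, was weak at 8.07 ± 0.32. Pgr, Rxrg and Rarb were lowest (4.69 to 4.80). Ppard read the same value, 9.60, in all 3 arrays and met the rule for strong, as its rank was in the top 10% in each.

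Signal-dependent factors were nearly all present. Jun read 12.48, 12.46 and 12.42, Atf3 12.46, 12.24 and 12.54, and Fos 11.63, 11.56 and 11.92. Rel, the NF-kB subunit c-Rel, read 11.75, 11.06 and 12.45, and Fosb read 11.21, 10.97 and 11.99. Other NF-kB genes were lower in class, as Rela and Nfkb2 were moderate at 9.19 and 8.49 and Relb was weak at 7.26. Stat3, through which the IL-10 receptor signals, was strong at 10.50, 10.22 and 10.51. Smad4 and Stat6 were strong at 10.35 and 9.87, and Smad2 and Smad3 moderate at 8.62 and 8.77. Egr3 was the member not detected (5.49), and Stat5a and Relb were the next lowest.

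The detected factors of other lineages were mostly epithelial. Among epithelial factors, Klf5 was strong at 10.37, 10.41 and 10.02, Elf3 was strong at 9.96, 10.26 and 9.65, Cdx2 was moderate at 8.38, and Atoh1, Sox9, Foxa1 and Cdx1 were weak at 8.10, 8.04, 7.52 and 6.60. Foxa2, also a factor of gut epithelium, lay at or below background at 5.86 ± 0.16. Prdm1, which plasma cells and macrophages share, was strong at 9.74, 9.59 and 10.73. The T and B cell factors Gata3, Foxp3, Tbx21 and Pax5 and the stromal and muscle factors Twist1 and Myod1 lay between 4.70 and 5.27. The 8 detected members of this list were highest in array 2 in 6 cases, and the epithelial markers were highest in array 2 in 13 of 15.

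Enzyme genes gave 62 of 94 above background (66% against 44.3% of all genes) and 32 strong (34% against 8.72%). In eicosanoid synthesis, 12 of 19 genes were above background (63.2%) and 7 were strong (36.8%). Ptgs2, the inducible cyclooxygenase, was strong but varied, at 11.74, 10.83 and 12.55. Downstream of it, the prostaglandin D2 synthase Hpgds read 10.91, 10.79 and 11.18 and the thromboxane synthase Tbxas1 10.56, 10.55 and 10.53. The prostaglandin E synthases were unequal, with Ptges3, a co-chaperone that is expressed in most cells, strong at 11.48, Ptges2 weak at 6.22 and the inducible Ptges at background at 5.67. Hpgd, which inactivates prostaglandins and is also abundant in colonic epithelium, was strong at 11.34, 11.57 and 11.33. On the leukotriene side Alox5ap was strong at 9.87, Alox5 and Lta4h moderate at 9.07 and 9.10 and Ltc4s weak at 7.79, while Alox15, Alox12, Alox12b and Alox12e lay at background (4.82 to 5.04).

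Among arginine, tryptophan, heme and redox enzymes, 17 of 28 were above background (60.7% against 44.3% of all genes) and 9 were strong (32.1% against 8.72%). The strong genes served oxidant production, antioxidant defence and heme breakdown. Cybb, the catalytic subunit of the phagocyte NADPH oxidase, read 12.45, 12.44 and 12.83, and its partner Cyba read 11.82, 11.93 and 11.52. Gpx1, Prdx1 and Hmox1 stood at 11.68 ± 0.049, 11.45 ± 0.082 and 11.01 ± 0.043, and Cat, Sod1 and Sod2 were strong too. The enzymes often used to type macrophage activation were not detected. Nos2 read 5.03, 5.13 and 5.08, Arg1 read 4.87, 4.82 and 4.82, Ido1 stood at 4.85 and Acod1, which makes itaconate, read 6.67, 5.70 and 5.82. The lowest were Tdo2, Mpo and Nos1 (4.52 to 4.71).

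Glycolytic genes gave 19 of 24 above background (79.2% against 44.3% of all genes) and 9 strong (37.5% against 8.72%). Ldha read 11.34, 11.72 and 11.54 and Aldoa 11.27, 11.43 and 10.98, with Pgk1 and Tpi1 at 10.48 and 10.45. The glucose transporter gene Slc2a1 was strong at 9.95, 10.14 and 10.52 and its relative Slc2a3 was at background at 5.73. The brightest row of Hk1 read 11.90, but the probe table lists no RefSeq transcript of Hk1 for that row, and the row that carries one read 8.67, in the moderate range. The counts of 9 strong glycolytic genes and 32 strong enzyme genes include Hk1 by its brightest row. Hk2 was moderate at 8.53. Array 1 was lowest for 14 of the 18 detected members with different values in the 3 arrays, against 3853 of 6954 such genes in all. Array 2 was highest for 11 of the 18, against 2034 of the 6954, and for 13 of 15 epithelial markers. Array 3 was lowest for 2 of the 18 and for 9 of the 15 epithelial markers. The part of epithelial RNA in the glycolytic signals was not tested. The muscle and brain forms Pgam2 and Eno2 were lowest with Slc2a2 (4.66 to 5.01).

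Matrix proteases and their inhibitors gave 14 of 23 above background (60.9% against 44.3% of all genes) and 7 strong (30.4% against 8.72%). Mmp13, a collagenase, read 11.11, 11.10 and 12.34, and Plau, the urokinase gene, read 10.99, 10.80 and 11.45. Timp2, F13a1 and Adam17 completed the 5 highest, at 10.74, 10.55 and 10.48, with F13a1 lower in array 3 (10.99, 10.77 and 9.89). Adam17 releases TNF from the cell surface. Mmp12 and Mmp14 were moderate at 9.66 and 9.60. Mmp9 was undecided at 7.02, 6.48 and 5.74. Mmp3, the neutrophil collagenase Mmp8 and the inhibitor Timp1 were lowest (4.63 to 4.92), and Plat, the tissue plasminogen activator, was also at background (4.94).

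Of the 5 roles, as their lists were chosen, lysosomal genes had the largest share above background. Of 77 genes 70 were above background (90.9% against 44.3% of all genes) and 48 were strong (against 8.72%). The median lysosomal gene stood at log2 10.15, against 5.86 over all genes.

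Among 20 proteases and inhibitors 15 were above background (75% against 44.3% of all genes) and 12 were strong (60% against 8.72%). Ctsc, the dipeptidyl peptidase, read 12.96, 13.06 and 13.20. Lgmn, the asparaginyl endopeptidase that cleaves antigen, read 12.93, 12.93 and 13.01, and Ctsb read 12.72, 12.78 and 12.85. Ctsa and the cathepsin inhibitor Cst3 followed at 12.69 ± 0.030 and 12.62 ± 0.086. Ctss, which degrades the invariant chain, was strong at 11.91 ± 0.18, with Ctsd at 11.61 and Ctsl at 10.57. The 4 members at background were Ctsg, of neutrophils, at 4.77, Ctsw, of cytotoxic lymphocytes, at 4.92, Ctsk, of osteoclasts, in the 24.8th percentile, and Cst7 at 5.34.

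All 29 hydrolases and activators were above background (100% against 44.3% of all genes) and 13 were strong (44.8% against 8.72%). Lyz2, the macrophage lysozyme, read 13.47, 13.54 and 13.52 and Psap, the precursor of the saposins, read 13.35, 13.39 and 13.48. Gm2a, Asah1 and Ppt1 followed at 12.44, 12.29 and 11.71. Hexa and Man2b1 were strong at 11.38 ± 0.0087 and 11.39 ± 0.036, and arrays 2 and 3 held the same value for Hexa. The 3 lowest were Arsa, which acts on sulfatide, and Naglu and Galns, which act on glycosaminoglycans (7.04 to 7.91). Other glycosaminoglycan enzymes were moderate or weak, with Ids at 9.31, Idua at 8.75 and Sgsh at 8.20. The signal of Lyz1, the Paneth cell lysozyme (10.37 ± 0.083), is uncertain, since Lyz1 is a near-identical copy of Lyz2.

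The membrane of the lysosome and its proton pump were detected nearly whole. Of 28 genes 26 were above background (92.9% against 44.3% of all genes) and 23 were strong (82.1% against 8.72%). Laptm5 read 12.73, 12.64 and 12.77, Cd68 read 12.19, 12.14 and 12.21 and Lamp1 read 12.04, 12.08 and 12.11. Lamp2 and Cd63 were strong at 11.85 and 11.71. The cholesterol exporters Npc1 and Npc2 stood at 10.28 ± 0.038 and 10.46 ± 0.10, and the calcium channel gene Mcoln1 at 9.85 ± 0.10. Of the pump subunits, the forms found in most cells were detected, from Atp6v0b at 10.75 to Atp6v1h at 8.26. Their tissue-restricted relatives were not, with Atp6v1b1, of kidney, at 4.83 in each array and Atp6v0d2, of osteoclasts, undecided at 6.34. The regulators of lysosomal genes were moderate or weak. Tfe3 stood at 9.32 ± 0.075, Mitf at 9.05 ± 0.17, Tfec at 8.96 ± 0.13 and Tfeb at 7.70 ± 0.078.

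Lysosomal promoters were searched for TCACGTG, an E-box form that occurs before many lysosomal genes and is recognised by factors of the TFEB family. Every TCACGTG match is also a match to the shorter E-box CACGTG, and both strands were read over the same 250 bases. The longer form occurred in 19.4% of 72 promoters of 65 measured lysosomal genes, in 16% of 50 promoters of 43 strong lysosomal genes and in 3.86% of 19177 promoters of all measured genes. CACGTG gave 22.2%, 18% and 6.99%. GAGGAA was found in 26.4% of lysosomal promoters and TATAAA in 9.72%, against 22.6% and 10.5% of those of all measured genes. The promoters of Lamp1 (chr8:13158911-13159160, plus strand) and Ctsd (chr7:142387828-142388077, minus strand) are shown because several matches, in capitals, lie within the window. Lamp1 has 4 matches and Ctsd has 3, of which 2 overlap in TCACGTGA, which reads the same motif on both strands; CACGTGA is the motif on the other strand.
Lamp1: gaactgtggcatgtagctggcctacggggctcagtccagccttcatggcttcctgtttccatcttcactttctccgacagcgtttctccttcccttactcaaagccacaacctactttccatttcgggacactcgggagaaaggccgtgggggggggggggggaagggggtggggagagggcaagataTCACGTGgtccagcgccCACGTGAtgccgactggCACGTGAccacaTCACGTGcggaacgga
Ctsd: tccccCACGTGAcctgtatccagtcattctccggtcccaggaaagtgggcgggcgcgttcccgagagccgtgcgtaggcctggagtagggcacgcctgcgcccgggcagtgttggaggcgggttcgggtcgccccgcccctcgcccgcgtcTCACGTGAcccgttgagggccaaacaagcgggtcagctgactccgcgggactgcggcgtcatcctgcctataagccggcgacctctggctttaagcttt
The 8 strong lysosomal genes with a match were Lgmn, Ctsa, Lamp1, Ctsd, Atp6v0b, Atp6v1a, Mcoln1 and Cln3.

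Genes of antigen presentation were among the highest of the array. Of 15 genes 13 were above background (86.7% against 44.3% of all genes) and 9 were strong (60% against 8.72%). H2-Ab1, H2-Aa and H2-Eb1, the chains of MHC class II, stood at 13.58 ± 0.059, 13.56 ± 0.0074 and 13.46 ± 0.0039, and their invariant chain Cd74 at 13.54 ± 0.0046. Ciita, the activator of these genes, read 9.74, 9.56 and 10.06. Cd83 was strong at 12.68, 12.14 and 12.77. Of the ligands of CD28, Cd86 was strong (10.29, 9.57 and 10.51) and Cd80 moderate (9.67, 9.26 and 10.58). Of the ligands of PD-1, Cd274 was strong at 10.19 ± 0.71 and Pdcd1lg2 was undecided at 6.18. H2-Ob and H2-Oa, subunits of the peptide-loading inhibitor H2-O, stood at 8.75 and 6.45.

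The 25 highest genes, with ribosomal, mitochondrial, predicted and noncoding genes left out, repeated these roles. Beside the genes already named they held the housekeeping genes Actb (13.98), B2m, Eef1a1, Fth1, Txn1, Hspa8, Tpt1, Serinc3, Ube2d3 and Rhoa, the lipid carrier gene Apoe (13.41, 13.44 and 13.36), the selenium carrier gene Selenop (13.20, 13.14 and 13.30) and Srgn, the granule proteoglycan serglycin. Lypd8 (13.25, 13.60 and 13.41), a colonic epithelial protein, stood among them with Car1. The highest of all, Baiap2l1 at 14.08, rests on a row for which the probe table lists no RefSeq transcript of that gene, while the row that carries one read 9.30.

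The 3 arrays agreed closely over the whole array and differed in particular genes. Pearson's r across the 35399 rows was 0.985 to 0.991 between them, a description over rows that are not independent. The median SD of a gene was 0.0762, and 0.149 among strong genes. Of the 8834 genes above background 189 (2.14%) ranged over more than 1 log2 unit. In 97 of these array 3 stood apart on the high side and in 24 on the low side, against 7 and 29 for array 1 and 9 and 23 for array 2.

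The 12 widest ranges included Lyve1, Vegfa and genes of other roles. Ribosomal, mitochondrial, predicted, noncoding and clone-named genes and segments of immunoglobulin and T cell receptor genes had been left out of this ranking. Clca1, secreted by goblet cells, read 9.52, 11.37 and 12.06. Il7r read 7.98, 8.78 and 9.93, and Cytip, a regulator of leukocyte adhesion, read 9.12, 9.40 and 11.22. Thbs1 (thrombospondin) read 11.30, 10.74 and 12.69, and Plaur, the urokinase receptor, 9.19, 8.74 and 10.61. Nr4a3 and Nfil3 were lowest in array 2, at 7.42 and 7.33, and highest in array 3, at 9.65 and 9.09. Ocstamp, a gene of cell fusion, read 8.45, 8.57 and 10.34 and Bin2 9.16, 10.19 and 10.94. For Adck1 (8.55, 8.59 and 10.46) the kept row lists no RefSeq transcript of the gene, and the row that does read 5.77, below background. In 11 of the 12 genes array 3 was the highest, and Lyve1 was the exception.

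Lists differed in which array was the highest. Among detected genes with 3 different values array 3 was the highest for 53.6% of 6954 genes. The share was 95% for pattern recognition receptors (19 of 20), 77.3% for cytokine receptors (17 of 22) and 77.3% for lysosomal hydrolases (17 of 22), and it equalled the overall share for scavenging receptors (53.6%). It was lower for redox enzymes (50%), growth factors (41.7%), eicosanoid enzymes (36.4%), glycolytic genes (33.3%), nuclear receptors (31.2%), chemokines (25%) and factors of other lineages (12.5%). Array 2 was the lowest for 24.4% of all such genes and for 9 of 12 cytokines, 17 of 28 myeloid factors and 13 of 22 signal-dependent factors. Epithelial and fibroblast markers ran the other way, with array 2 the highest for 13 of 15 and 6 of 7 detected members and array 3 the lowest for 9 of 15 and 7 of 7. The part of epithelial and fibroblast RNA in the differences between arrays was not tested.

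**Figure D5:**
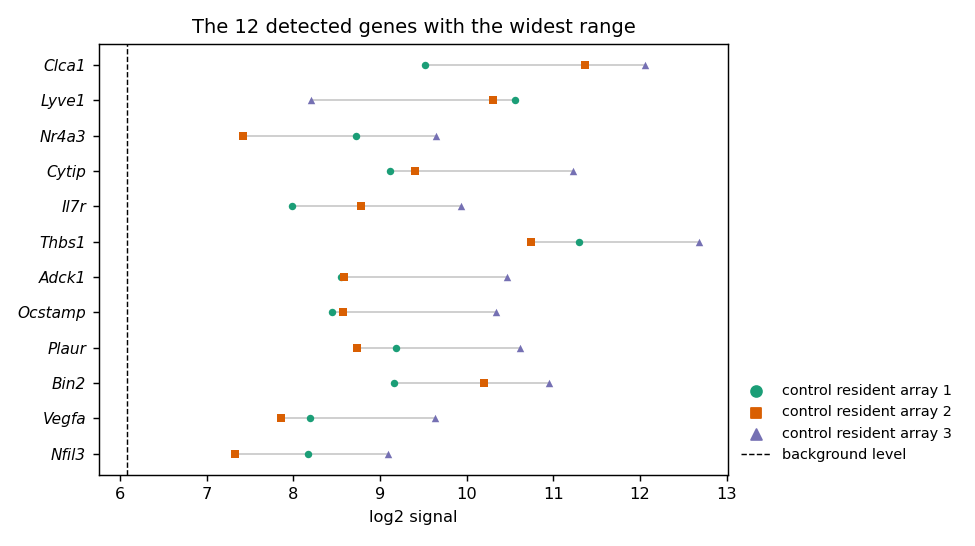
log2 signal in control resident arrays 1, 2 and 3 of the 12 genes above background with the widest range, ordered by range, with a grey bar over the range. Ribosomal, mitochondrial, predicted, noncoding and clone-named genes and segments of immunoglobulin and T cell receptor genes were left out. Array 3 (triangles) is the highest in 11 of the 12 genes, and Lyve1, at 8.20 in array 3 against 10.56 and 10.30, is the exception.

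The control array with the CX3CR1hi sort label is given beside these values as percentiles among genes, since its value distribution differs (upper quartile 8.26 against 7.93 to 7.97). Its sort label differs from that of the 3 arrays, and the labels name 2 RNA kits by sample numbers that are not tied to arrays, so sort and kit cannot be told apart here. The 6 macrophage markers lay at percentiles of 96.9 to 99.4 there and of 94.5 to 99.6 in the resident arrays, with Il10 at 96.9 and 94.5. Genes at or below background in the resident arrays, such as Nos2, Arg1 and Il12a, lay at percentiles of 37.1, 21.1 and 9.4 there. Larger gaps were seen for the dendritic cell chemokines Ccl17 (percentiles of 66.7 in the resident arrays and 42.0 in that array) and Ccl22 (61.7 and 39.4), for the growth factor Hbegf (82.9 and 93.4) and for the transcription factor Klf4 (82.2 and 93.8). These genes were picked for their gap, and no difference was tested. The mean of the epithelial markers was higher in that array, at 11.16 against 10.39 to 10.76.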

How the data were processed

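Gene expression was measured on 7 Affymetrix arrays, of which the 3 control resident arrays were analysed. The authors deposited log2 values, and the submitters' processing notes name RMA (background correction, normalization and probe-set summary) and Partek. Versions, the build and the set of arrays normalized jointly were not given in the sources used here. RMA pulls low and very high values together. The deposited table has 35399 rows: 21789 with 1 gene symbol in the platform annotation, 1621 with several and 11989 with none; 21698 were matched by gene ID to RefSeq (GRCm38.p6, names only). The brightest row was kept for the 999 genes with several rows. Of the 670 listed or named genes, 5 rest on a row that lists no RefSeq transcript of that gene (Adck1, Baiap2l1, Clec7a, Hk1 and Il12b).

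The mean of the 3 arrays was tested against the background level, taken as fixed, with limma 3.58.1 in R 4.3.3 (intercept only, eBayes with trend, one-sided, Benjamini-Hochberg over 19938 genes; 2 residual and 0.586 prior degrees of freedom), after tests on simulated data. Unadjusted p was under 0.05 for 9009 genes. The p-values rest on the spread among the 3 arrays, which may be technical. In 2761 of the 35399 rows the 3 arrays held exactly the same value, and in others 2 arrays did. Very small SDs and p-values can reflect such ties and are not a measure of biological steadiness. Of the genes listed, 136 of 150 receptor, 98 of 103 cytokine, 111 of 119 transcription factor, 94 of 102 enzyme and 77 of 84 lysosomal genes were matched to a row; the others were not analysed here. Array numbers follow accession order and only name arrays. Members and lists were chosen with earlier results of these data known. Named genes were the 6 macrophage markers, the 5 highest and 3 lowest of each list, and the highest and strong members of marker lists. The 25 highest genes and the 12 widest ranges were also named, after the exclusions given with them. The split into moderate and weak genes and the counts by array were added after the data were seen. Alternatives are given in the closing section.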

Additional observations from a re-analysis of the deposited data

How the results depend on the processing

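Under the alternatives, 122 values for the counts over all genes and over the 5 roles lay within 1.5 times the main count and 4 did not. Those 4 came from calling a gene strong only in the top 5% of every array, which left 843 of 1739 strong genes, with 11 of 19 cytokine, 19 of 31 transcription factor and 19 of 32 enzyme genes. Some of the 122 values could not have moved. Strong is a rank within each array, so quantile normalization again returned the same 1739 genes. The top 10% by mean holds 1994 genes whatever the values. With the background at the 99th percentile of the receptor genes (log2 6.75) 7284 genes were above it, and at an adjusted p under 0.01 there were 8215 (limma). Leaving out each array in turn gave 8036 to 8614 genes above background and 1809 to 1833 strong genes; the strong count cannot fall with fewer arrays, since the rule asks for the top 10% in each. Taking the mean of a gene's rows gave 8794 and 1747, and adding the CX3CR1hi control array gave 9341 and 1615. For single lists the bound was again 1.5 times the main count, and for the level of each of the 6 markers it was that gene's SD between arrays. Within these bounds 724 values stayed and 32 moved. No paired analysis was possible because only 1 group was described and replicate numbers follow accession order. With 3 arrays, 545 genes over the background level could not be decided.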

Other observations

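Some receptor genes used to set the background were themselves above it. Olfr111, an olfactory receptor gene, read log2 9.65, 8.46 and 10.14 in the 3 control resident arrays and 9.85 in the CX3CR1hi control array, at about the 89th percentile in both, and its mean lay 3.33 over the background level (adjusted p = 0.00958, limma, one-sided). Its neighbour in name, Olfr110, read 6.80, 6.48 and 7.02. Olfr1174 stood at 8.15 and the vomeronasal receptor pseudogene Vmn2r-ps104 at 8.14, the latter at the 43.8th percentile in the CX3CR1hi array against the 75.8th in the resident arrays. The other 16 of the 20 such genes above background lay between 6.23 and 7.22. Cross-reaction of these probe sets was not tested.

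Cell cycle genes were detected in the sorted cells. Of 13 markers 12 were above background (92.3% against 44.3% of all genes), 8 of them weak, and 2 were strong (15.4% against 8.72%). The strong genes were Pcna, the replication clamp, at 11.15, 11.35 and 11.36 and Ccnb2, a mitotic cyclin, at 9.69, 9.70 and 9.72. Mki67 and Ccna2, which mark cycling cells, were moderate at 9.45 and 9.33, Top2a was weak at 8.16 and Birc5 lay at background at 5.54. The list's mean was 8.08, 8.32 and 8.25 in arrays 1, 2 and 3, and array 2, which had the highest mean of the epithelial markers, was the highest for 7 of the 11 detected members with 3 different values. The cell type behind this signal was not tested.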
